A study of Homo sapiens with 6 samples.

Results

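The genes described here build, attach and trim the glycosylphosphatidylinositol (GPI) anchor, and they were measured in SNU216 cells, an established human gastric cancer line, after knockdown of the oxytocin receptor gene OXTR. Members were taken by symbol, as PIG plus 1 letter (without PIGR), PGAP plus a digit, GPAA1, DPM1, DPM2 and DPM3. This gave 30 of the 17318 genes in the files. Of the 6 libraries, 3 came from cells that received a control siRNA (siControl) and 3 from cells that received an siRNA against OXTR (siOXTR), each for 48 h. All cells were transfected, and the labels name 1 cell line, no untransfected group and no rescue. Nothing in the labels shows that libraries of 1 group were cultured apart, and p-values therefore cover the spread among these 6 libraries alone, part or all of which may be technical. Levels are FPKM, a count of sequenced fragments divided by transcript length and by the size of the library, and thus per length.

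The GPI anchor is a glycolipid that holds many enzymes, receptors and adhesion proteins on the outer face of the cell surface. It is assembled on phosphatidylinositol in the membrane of the endoplasmic reticulum (ER), by addition of glucosamine, then mannoses donated by dolichol phosphate mannose, then ethanolamine phosphates. A transamidase of several subunits then cuts a signal from the end of the client protein and joins the finished anchor in its place, and remodelling enzymes afterwards trim the anchor's lipid and glycan in the ER and Golgi.

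OXTR was at 39.37, 38.87 and 39.02 FPKM in siControl and at 4.76, 4.65 and 5.34 FPKM in siOXTR, so the targeted gene followed the labels in every library. Sequencing depth is unknown. FPKM summed to 417829, 431543 and 434167 in the siControl libraries and to 446246, 459595 and 456659 in the siOXTR libraries, so every siOXTR sum was higher. The keratin genes KRT8, KRT18 and KRT19, markers of simple epithelia, were at or above 1494.86 FPKM in every library. KRT19 rose by 0.27 on the log2 scale as deposited (adjusted p = 0.011, limma) and did not pass after TMM scaling, a rescaling described below. KRT18 and KRT8 had differences of 0.15 and 0.14 and did not pass. The epithelial surface genes EPCAM and CDH1 went the other way and fell by 1.00 and 1.88 (limma, adjusted p = 5.53e-08 and 1.52e-10). Summed markers of other cell types were low. They reached 1.62 to 2.02 FPKM in siControl and 0.61 to 0.81 FPKM in siOXTR over 5 fibroblast genes, 1.3 to 1.81 and 1.73 to 2.91 FPKM over 3 blood genes, and 0.59 to 0.96 and 0.39 to 0.62 FPKM over 3 endothelial genes. The part of these shifts in the results was not tested.

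Most genes of the late steps of anchor assembly fell in siOXTR. All 5 transamidase subunit genes fell, 4 of them to between 52.0% and 59.1% of their siControl mean. PIGN and PIGO, which encode ethanolamine phosphate transferases, fell 2.33-fold and 1.71-fold. Of the 29 members with a mean of at least 1 FPKM, 14 were lower and 2 higher (limma on log2(FPKM + 1), adjusted p under 0.05 over 11550 genes), and 13 did not pass. Over all tested genes, 17.6% were lower and 42.2% were higher. The members' median log2 difference was -0.19, against 0.13 over all tested genes. The siOXTR libraries lay below every siControl library in 15 members and above in 0, against 19.2% and 45.2% of all tested genes. The other member, PGAP4, a Golgi enzyme gene that adds a sugar side branch, was at 0.04 to 0.06 FPKM in siControl and 0.01 to 0.04 FPKM in siOXTR and was not tested.

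Scaling decided the calls of small changes. Scaling by trimmed means of log ratios (TMM) shifted the median gene by -0.12 on the log2 scale. After it, 18 members were lower and 0 higher, against 24.2% and 19.7% of all tested genes. The 14 lower members were all among the 18, joined by PIGQ, PIGL, PIGX and PGAP2, and the 2 higher members, PIGP and DPM1, lost their calls.

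**Figure D1:**
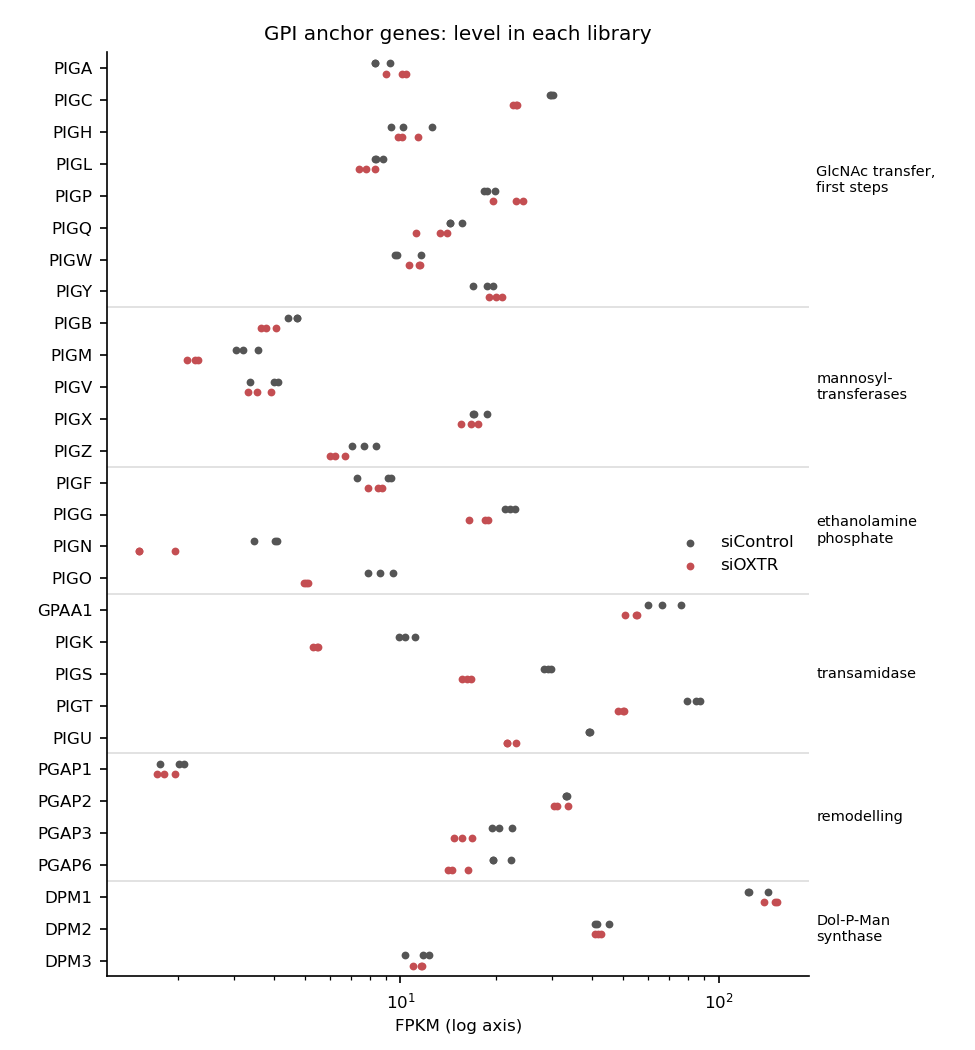
Level of the 29 tested members in each library, in FPKM on a log axis, with siControl in grey and siOXTR in red and genes grouped by their step. The siOXTR points of the 5 transamidase genes and of PIGN and PIGO all lie left of the siControl points, whereas the points of DPM2 and DPM3 overlap.

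**Figure D2:**
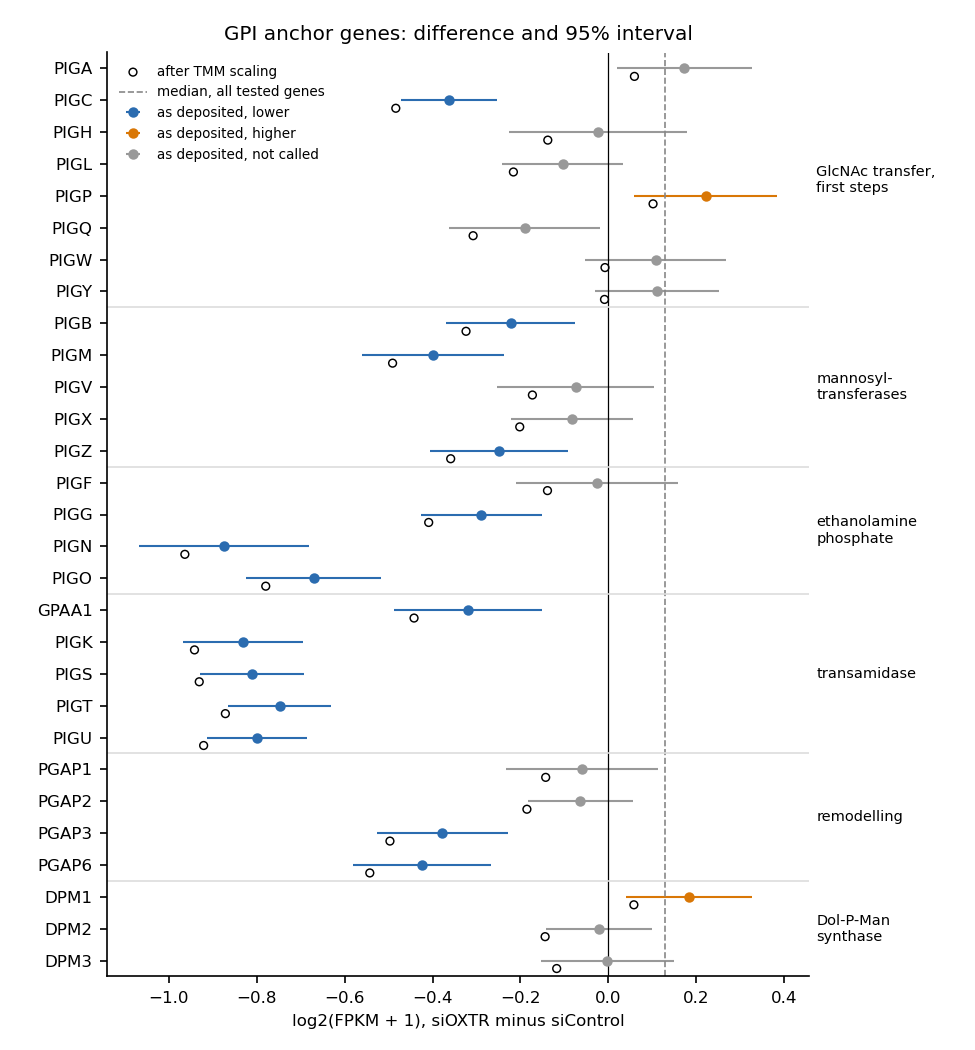
Difference of each tested member between siOXTR and siControl on the log2(FPKM + 1) scale, with the 95% interval from limma. Filled points are as deposited and open points after TMM scaling, and the dashed line is the median of all tested genes at 0.13. Values run from -0.87 for PIGN to 0.22 for PIGP.

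To show the bases before the RefSeq start of genes that fell, those of 3 genes are printed, 5' to 3' on the gene's strand, with the motifs CCAAT and CCACG (either strand) in capitals. CCAAT is the site of the factor NF-Y, and CCACG is the part of the ER stress response element to which ATF6 and XBP1 bind. The stretches come from RefSeq on GRCh38.p14 and hold the bases before the RefSeq gene start that no exon in GENCODE release 29 covers: PIGK at chr1:77219431-77219680 (minus strand), PIGO at chr9:35096602-35096841 (minus strand) and PIGU at chr20:34677093-34677342 (minus strand). The RefSeq start of PIGU differs from the end of its GENCODE span, and the PIGU stretch lies inside that span.
PIGK: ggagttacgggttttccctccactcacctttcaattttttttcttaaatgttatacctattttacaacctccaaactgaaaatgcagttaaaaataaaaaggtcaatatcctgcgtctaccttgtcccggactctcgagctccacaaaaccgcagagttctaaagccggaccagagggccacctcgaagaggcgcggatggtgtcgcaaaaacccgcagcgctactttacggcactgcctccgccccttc
PIGO: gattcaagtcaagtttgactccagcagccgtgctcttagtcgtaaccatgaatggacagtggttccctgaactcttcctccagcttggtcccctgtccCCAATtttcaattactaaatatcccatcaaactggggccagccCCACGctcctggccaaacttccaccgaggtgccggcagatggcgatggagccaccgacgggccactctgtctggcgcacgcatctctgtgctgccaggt
PIGU: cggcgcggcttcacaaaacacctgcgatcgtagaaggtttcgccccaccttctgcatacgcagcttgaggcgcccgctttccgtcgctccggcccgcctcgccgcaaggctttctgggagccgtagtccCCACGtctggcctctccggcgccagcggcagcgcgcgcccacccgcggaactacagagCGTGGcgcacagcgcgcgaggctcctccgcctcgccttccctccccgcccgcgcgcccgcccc

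PIGK held neither motif, PIGO held both, and PIGU held CCACG on each strand. RefSeq promoter entries were matched for 25 of the 30 members. In the 250 bases before the start, CCACG was in 14 of 25 members (56%), against 44.9% of 9511 tested genes and 33.5% of all 35116 promoter entries. CCAAT was in 7 of 25 (28%), against 35.8% and 32.0%. The full ER stress element, CCAAT and CCACG separated by 9 bases, was in 0 members, 0.137% of tested genes and 0.0740% of all entries. These matches describe the letters in the windows and carry no test.

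Of the 8 genes of the early steps of assembly, PIGC fell, PIGP rose and 6 did not pass as deposited. Over all tested genes 17.6% were lower and 42.2% higher. The enzyme that transfers N-acetylglucosamine to phosphatidylinositol has PIGA as its catalytic subunit, with PIGC, PIGH, PIGP, PIGQ and PIGY as further subunits. PIGC was at 29.77, 29.48 and 30.17 FPKM in siControl and at 22.59, 23.07 and 23.22 FPKM in siOXTR. Its groups did not overlap, and it fell by 0.36 on the log2 scale (SE 0.050, adjusted p = 8.50e-05, limma). PIGA was at 8.31, 8.30 and 9.26 FPKM in siControl and 10.11, 10.43 and 9.01 FPKM in siOXTR. The siOXTR library 3 lay below the highest siControl library, and the difference of 0.17 did not pass (adjusted p = 0.0518, limma).

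PIGP, a small subunit, rose from 18.9 ± 0.75 to 22.3 ± 2.47 FPKM (SD, n = 3 each) as deposited, by 0.22 on the log2 scale (adjusted p = 0.0229, limma). Its groups overlapped, its value after TMM scaling was 0.10 (adjusted p = 0.295, limma), and the call was also lost without any one of siControl replicates 1 and 2 and siOXTR replicates 2 and 3 (0.16 to 0.21). PIGQ, which stabilises the complex, was at 14.30 to 15.61 FPKM in siControl and 11.16 to 14.04 FPKM in siOXTR. Its groups did not overlap, but the difference of -0.19 did not pass (adjusted p = 0.0524, limma), and it did pass after TMM scaling (-0.31, adjusted p = 0.00641, limma). PIGH had a log2 difference of -0.02 (95% interval -0.23 to 0.18). PIGC, PIGH, PIGP and PIGQ have named pseudogenes, so their levels are uncertain where reads were split.

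PIGY was at 16.88, 18.77 and 19.56 FPKM in siControl and 19.93, 20.84 and 19 FPKM in siOXTR. PYURF, the other reading frame of the same bicistronic transcript, was listed with equal FPKM in all 6 libraries, so both are 1 measurement. PIGL, which removes the acetyl group, and PIGW, which adds an acyl chain to inositol, had differences of -0.10 and 0.11 and did not pass. Their 95% intervals ran from -0.24 to 0.03 and from -0.05 to 0.27.

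Among the mannosyltransferase genes 3 of 5 fell. For comparison, 17.6% of all tested genes were lower, and 40.7% of those with a predicted membrane segment (described below). PIGM encodes the enzyme that adds the first mannose, and it was at 3.56, 3.05 and 3.21 FPKM in siControl and 2.26, 2.14 and 2.31 FPKM in siOXTR. The groups did not overlap, and it fell by 0.40 on the log2 scale (SE 0.074, adjusted p = 0.000717, limma). PIGX, which encodes the partner that stabilises PIGM, was at 17.56 ± 1.005 and 16.5 ± 0.997 FPKM in siControl and siOXTR and missed the threshold (adjusted p = 0.275, limma). PIGV, which adds the next mannose, missed it too, at 3.84 ± 0.407 and 3.59 ± 0.308 FPKM. PIGB, which adds the one after, fell from 4.63 ± 0.167 to 3.83 ± 0.216 FPKM, by 0.22 on the log2 scale, and lost its call without siOXTR replicate 2 (-0.20, adjusted p = 0.0604, limma). The exons of PIGB overlap those of 3 protein-coding genes on the other strand. CCPG1 fell from 8.98 ± 0.471 to 4.59 ± 0.0643 FPKM, PIGBOS1 rose from 6.79 ± 0.829 to 8.37 ± 0.317 FPKM as deposited but did not pass after TMM scaling, and RAB27A was at 5.90 ± 0.488 and 6.00 ± 0.399 FPKM. PIGZ, which adds a side mannose, fell from 7.69 ± 0.650 to 6.31 ± 0.342 FPKM, by 0.25 on the log2 scale.

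The ethanolamine phosphate transferase genes fell in 3 of 4 cases, against 17.6% of all tested genes and 40.7% of those with a predicted membrane segment. PIGN, whose enzyme acts on the first mannose, was at 4.04, 4.10 and 3.47 FPKM in siControl and 1.51, 1.51 and 1.96 FPKM in siOXTR. No siOXTR library reached the lowest siControl library, and mean FPKM was 2.33-fold lower. PIGN had the lowest log2 difference of the members, at -0.87 (SE 0.089, adjusted p = 5.76e-06, limma), and 384 tested genes were lower still. PIGO, the catalytic subunit that acts on the last mannose, was at 9.47, 8.62 and 7.88 FPKM in siControl and 4.98, 5.04 and 5.14 FPKM in siOXTR. It fell 1.71-fold, or by 0.67 on the log2 scale (SE 0.071, adjusted p = 8.17e-06, limma). PIGN lies on chromosome 18 from 61905255 to 62187118 and PIGO on chromosome 9 from 35088688 to 35096601 (GRCh38). PIGG, the catalytic subunit that acts on the middle mannose, fell from 22.1 ± 0.860 to 17.9 ± 1.29 FPKM, by 0.29 on the log2 scale. PIGF, the partner that PIGO and PIGG share, was at 9.37, 7.31 and 9.16 FPKM in siControl and 8.53, 8.74 and 7.93 FPKM in siOXTR. Its groups overlapped, and the log2 difference was -0.03 (95% interval -0.21 to 0.16). PIGF has exons that overlap those of RHOQ and CRIPT on the other strand, and its level is uncertain where strand was not used in counting. It also has named pseudogenes.

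The transamidase genes fell in 5 of 5 cases, against 17.6% of all tested genes and 40.7% of those with a predicted membrane segment. In siControl the transamidase subunit genes ranked, per length, in the order PIGT, GPAA1, PIGU, PIGS and PIGK. PIGT, which holds the complex together, was at 84.77, 87.61 and 79.49 FPKM in siControl and 48.13, 50.19 and 50.41 FPKM in siOXTR, a log2 difference of -0.75 (SE 0.054, adjusted p = 2.43e-07, limma). PIGK, the protease subunit that cuts the client, was at 9.93, 10.33 and 11.08 FPKM in siControl and 5.30, 5.48 and 5.51 FPKM in siOXTR, a log2 difference of -0.83 (SE 0.063, adjusted p = 3.94e-07, limma). In both genes the highest siOXTR library lay far below the lowest siControl library.

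PIGS was at 28.22, 29.82 and 29.07 FPKM in siControl and 16.64, 16.18 and 15.56 FPKM in siOXTR (log2 difference -0.81, SE 0.054, adjusted p = 1.21e-07, limma). PIGU, which is thought to help recognise the lipid anchor, was at 39.07, 39.00 and 39.47 FPKM in siControl and 21.65, 21.61 and 23.04 FPKM in siOXTR (log2 difference -0.80, SE 0.052, adjusted p = 9.27e-08, limma). These 4 genes thus lay within a narrow range of log2 differences, from -0.83 to -0.75. On GRCh38 in GENCODE release 29, PIGK lies on chromosome 1 from 77088990 to 77219430, PIGS on chromosome 17 from 28553383 to 28571872, and PIGT and PIGU on chromosome 20 from 45416067 to 45456934 and from 34560542 to 34698790. PIGU shares exonic sequence on its own strand with NCOA6, which was at 24.1 ± 1.56 and 25.3 ± 0.887 FPKM and did not change past the threshold, and it has a pseudogene, PIGUP1, so its level is uncertain where reads were split. Summed over the 5 subunits, FPKM went from 230.2 ± 12.1 to 147.0 ± 1.66, or 63.9% of siControl.

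GPAA1, the subunit thought to form the bond between client and anchor, fell less. It was at 66.34, 76.30 and 59.99 FPKM in siControl and 55.30, 55.15 and 50.78 FPKM in siOXTR. The groups did not overlap, and it fell by 0.32 on the log2 scale (SE 0.077, adjusted p = 0.0039, limma). GPAA1 has the pseudogenes GPAA1P1 and GPAA1P2, so its level, too, is uncertain where reads were split. On the log2(FPKM + 1) scale, GPAA1 minus the mean of the other 4 subunits was 1.05 ± 0.163 in siControl and 1.53 ± 0.0804 in siOXTR (SD, n = 3 each), a difference of 0.48. This quantity was chosen after the values were seen, and its exact two-sided permutation p was 0.1, the smallest that 3 libraries against 3 can give. Per length, GPAA1 was at 0.803 ± 0.0607 of PIGT in siControl and 1.09 ± 0.0718 of it in siOXTR. The ratio was 1.149, 1.099 and 1.007 in the siOXTR libraries, so the genes were nearly level in the third of them. PIGK went the other way, from 0.1248 ± 0.0126 of PIGT in siControl to 0.1095 ± 0.0005 in siOXTR, with no overlap of the groups. The groups overlapped for the ratios of PIGU and PIGS to PIGT.

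**Figure D3:**
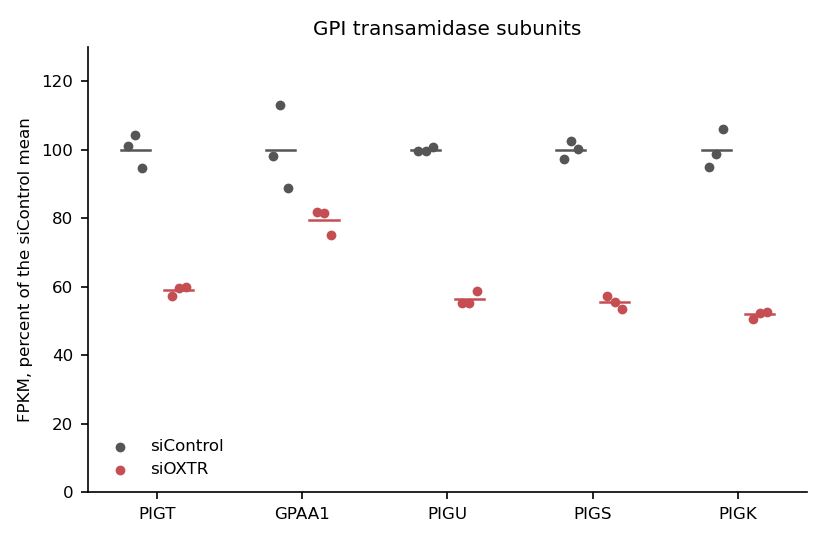
FPKM of the 5 transamidase subunit genes in each library as a percent of the gene's siControl mean, with siControl in grey, siOXTR in red and a bar at each group's mean. The siOXTR means lie between 52.0% and 59.1% for PIGT, PIGU, PIGS and PIGK and at 79.6% for GPAA1.

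Remodelling genes split, with 2 of 4 tested members lower. The share lower was 17.6% over all tested genes and 40.7% over those with a predicted membrane segment. PGAP3, which encodes a Golgi enzyme of fatty acid remodelling, was at 20.34, 22.39 and 19.45 FPKM in siControl and 15.64, 16.83 and 14.68 FPKM in siOXTR, a fall of 0.38 on the log2 scale (SE 0.068, adjusted p = 0.000589, limma). Its exons overlap those of ERBB2 on the other strand, a gene at 182 ± 20.1 and 100.8 ± 5.62 FPKM, and whether strand was used in counting is not given in the sources used here. PGAP6, a GPI-specific phospholipase gene, was at 19.51, 22.25 and 19.47 FPKM in siControl and 16.34, 14.47 and 14.07 FPKM in siOXTR, a fall of 0.42 on the log2 scale (SE 0.072, adjusted p = 0.000373, limma). It shares exonic sequence on its own strand with MRPL28, which went the other way, from 50.1 ± 2.78 to 60.5 ± 2.22 FPKM, although MRPL28 did not pass after TMM scaling (0.15, adjusted p = 0.0535, limma). PGAP1, which removes the acyl chain from inositol, was at 1.95 ± 0.178 and 1.83 ± 0.116 FPKM, and PGAP2, needed for the later fatty acid exchange, was at 33.2 ± 0.139 and 31.7 ± 1.66 FPKM. Neither passed as deposited, with 95% intervals of the log2 difference from -0.23 to 0.11 and from -0.18 to 0.05.

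The dolichol phosphate mannose synthase supplies the mannose donor of GPI and N-glycan assembly in the ER. DPM1, its catalytic subunit, was the most abundant member, at 123.21, 124.09 and 142.47 FPKM in siControl and 138.92, 152.84 and 150.35 FPKM in siOXTR. The groups overlapped. It rose by 0.18 on the log2 scale as deposited (SE 0.066, adjusted p = 0.0301, limma), and the value was 0.06 after TMM scaling (adjusted p = 0.503, limma). That call, too, was lost without any one of siControl replicates 1 and 2 and siOXTR replicates 2 and 3 (0.15 to 0.17). DPM2 and DPM3, the small membrane subunits that hold DPM1 at the ER, were at 42.4 ± 2.38 and 41.7 ± 0.929 FPKM and at 11.4 ± 1.006 and 11.4 ± 0.401 FPKM. Their log2 differences were -0.02 (95% interval -0.14 to 0.10) and -0.0023 (95% interval -0.15 to 0.15).

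The calls were compared with protein length. Protein lengths were predicted from the main coding transcript of each gene in GENCODE release 29, and the boundary of 280 residues was set after the values were seen. Of the 9 tested members below it, with 71 to 260 residues, 0 were lower and 2 higher as deposited, with a median log2 difference of -0.02. Of all 2831 tested genes below it, 11.8% were lower and 52.5% higher. Of the 20 members above it, with 297 to 1089 residues, 14 were lower and 0 higher, with a median of -0.34, against 19.6% lower and 38.8% higher among all 8637 tested genes of that length. All 20 had a predicted membrane segment (described below). Of the 2847 tested genes of that length with such a segment, 43.2% were lower. After TMM scaling 2 of the 9 shorter members, PIGL (-0.22, adjusted p = 0.0148, limma) and PIGX (-0.20, adjusted p = 0.0236, limma), and 16 of the 20 longer ones were lower and none was higher. The shares over all tested genes were then 16.9% lower and 28% higher below the boundary and 26.7% lower and 17% higher above it. PIGA, PIGW, PIGV, PIGQ, PGAP1 and PGAP2 were the 6 longer members that did not pass as deposited.

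Most members encode proteins with membrane segments. A stretch of 19 residues whose Kyte-Doolittle hydropathy averaged 1.6 or more was found in 26 of the 29 tested members, and the prediction missed PIGX and DPM3, which are known membrane proteins. Of these 26, 14 were lower and 1 higher. Of the 3627 tested genes with such a stretch, 40.7% were lower and 23.4% higher, and their median log2 difference was -0.06 against -0.24 for the 26 members. The median of the 7841 tested genes without one was 0.17. Among genes with a stretch, 31.5% of those under 280 residues and 43.2% of the longer ones were lower.

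**Figure D4:**
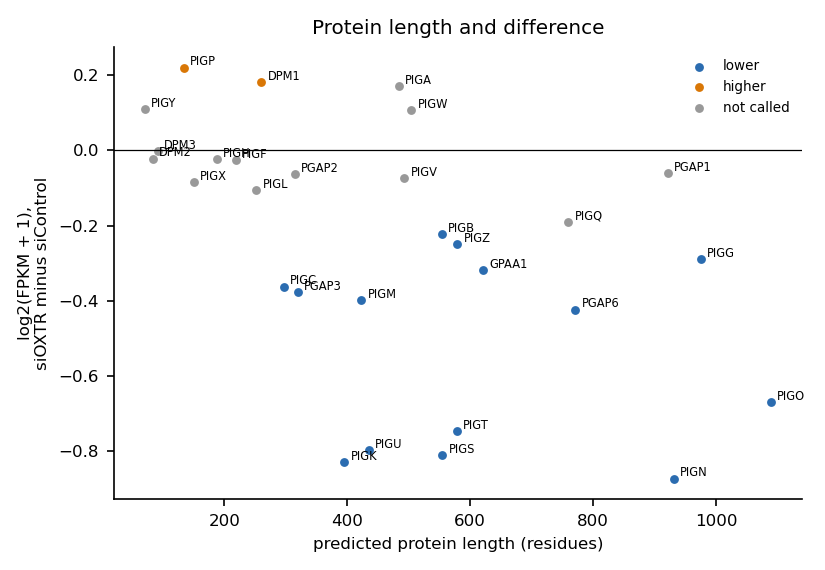
Log2 difference between siOXTR and siControl of each tested member against its predicted protein length in residues, coloured by call as deposited. As deposited, no point left of 280 residues is called lower and the 14 lower members lie between 297 and 1089 residues, whereas TMM scaling adds calls for PIGL and PIGX to the left of it. The length used for PIGX is that of 1 predicted isoform.

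Other genes of the pathway moved both ways. Of 23 listed genes, 21 were tested, 8 rose and 6 fell, with a median log2 difference of 0.11. The list holds genes that feed or follow anchor assembly, and also PYURF. PYURF repeats the FPKM of the member PIGY and did not pass. Of all tested genes, 42.2% rose and 17.6% fell, with a median of 0.13, so rises and median lay near those of all genes. TMM scaling gave 7 higher and 7 lower, against 19.7% and 24.2% of all tested genes. Proteins of the p24 family are cargo receptors that carry anchored clients out of the ER. The 4 p24 genes in the list all fell as deposited and after TMM scaling, and other p24 genes were not examined. TMED10 was at 85.55, 81.75 and 83.32 FPKM in siControl and 49.66, 50.71 and 50.00 FPKM in siOXTR, and TMED2 went from 98.5 ± 6.82 to 71.2 ± 1.99 FPKM. TMED9 fell too. TMED5 fell by 0.17 on the log2 scale (adjusted p = 0.0342, limma), and its call was lost with no filter on low values (adjusted p = 0.0668, limma) and without any one of siControl replicates 1 and 3 and siOXTR replicates 1, 2 and 3 (-0.18 to -0.11). SEC24D and SEC24C, which encode cargo-binding subunits of the COPII coat, rose, with SEC24D going from 10.8 ± 0.651 to 16.1 ± 0.395 FPKM.

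Of 5 listed genes of the cytosolic mannose supply, GMPPB, GMPPA and PMM2 rose both as deposited, where 42.2% of all tested genes were higher, and after TMM scaling. GMPPB, which encodes the catalytic subunit that makes GDP-mannose, went from 17.2 ± 0.768 to 24.8 ± 0.484 FPKM, its partner gene GMPPA from 17.97 ± 1.26 to 24.2 ± 0.457 FPKM, and the phosphomannomutase gene PMM2 from 27.3 ± 1.25 to 36.0 ± 0.308 FPKM. PMM1 also rose as deposited, but not after TMM scaling, and MPI did not pass. In the dolichol branch DHDDS, a subunit gene of the enzyme that builds the polyprenyl chain, rose, while DOLK, the dolichol kinase gene, fell from 9.66 ± 1.33 to 6.11 ± 0.0643 FPKM. NUS1 and SRD5A3 did not pass. MPDU1, needed to use dolichol phosphate mannose, rose. CLPTM1L, which flips the glucosamine intermediate across the ER membrane, fell from 72.7 ± 5.14 to 53.1 ± 0.765 FPKM. MPPE1, ARV1 and B3GALT4 did not pass as deposited, and GPLD1 and CWH43 were under the limit for testing.

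The clients of the pathway were mostly lower as well. Of 80 listed genes of GPI-anchored proteins 71 were in the files, and the 34 with a mean under 1 FPKM were not tested. Of the 37 tested genes, 29 were lower and 2 higher, with a median log2 difference of -0.48, and 33 and 2 after TMM scaling. The shares over all tested genes were 17.6% lower and 42.2% higher as deposited, and 24.2% and 19.7% after TMM scaling. On the log2(FPKM + 1) scale the largest falls among tested genes were those of ALPP, placental alkaline phosphatase, from 57.6 ± 4.07 to 23.4 ± 0.727 FPKM, CD109, a protease-inhibitor-like surface protein, from 12.4 ± 1.03 to 5.08 ± 0.217 FPKM, the semaphorin gene SEMA7A from 26.3 ± 2.09 to 11.4 ± 1.03 FPKM and MSLN (mesothelin) from 88.8 ± 5.51 to 42.04 ± 2.81 FPKM. By ratio of mean FPKM the order differed, with GFRA1, named after its values were seen, falling 2.61-fold and ALPP 2.46-fold. ALPP has a close copy in ALPG, and their split is uncertain. The rises were those of PSCA, from 1.11 ± 0.146 to 2.22 ± 0.204 FPKM, and RAET1L, from 1.82 ± 0.361 to 2.92 ± 0.696 FPKM.

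CD59 and CD55, complement regulators whose loss marks cells without GPI anchors, and the abundant surface genes CD24 and LY6E were picked after their values were seen. CD59 fell from 62.0 ± 1.795 to 44.2 ± 1.25 FPKM and CD55 from 13.2 ± 0.643 to 9.37 ± 0.615 FPKM. CD24 was at 1130 ± 86.0 and 1042 ± 33.8 FPKM and LY6E at 455.3 ± 42.5 and 432.8 ± 26.1 FPKM, and neither passed as deposited (adjusted p = 0.146 and 0.421, limma). After TMM scaling both were called lower, with log2 differences of -0.24 and -0.20 (adjusted p = 0.0110 and 0.0438, limma). These are mRNA levels, and surface protein was not measured.

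Related ER pathways held falls of similar or larger size. For comparison, 17.6% of all tested genes were lower and 42.2% higher as deposited. Among tested genes with a predicted hydrophobic stretch, 40.7% were lower and 23.4% higher. In the N-glycan precursor pathway, which shares the mannose donor, 9 of 15 genes were lower and 1 higher, with a median of -0.26. DPAGT1, which starts that pathway, fell from 34.3 ± 0.963 to 22.7 ± 0.809 FPKM, and ALG8 and ALG9 fell by 0.82 and 0.46 on the log2 scale, whereas ALG13 rose by 0.29. In the oligosaccharyltransferase, an ER transferase of several subunits that acts on nascent proteins, 6 of 12 genes were lower and 3 higher, with a median of -0.38. Its catalytic subunit genes STT3A and STT3B fell 2.86-fold and 1.92-fold and RPN2 2.24-fold, whereas the small subunit genes TMEM258, OST4 and OSTC rose by 0.30, 0.29 and 0.21 as deposited and did not pass after TMM scaling. The differences between these lists and the GPI anchor genes were not tested.

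**Figure D5:**
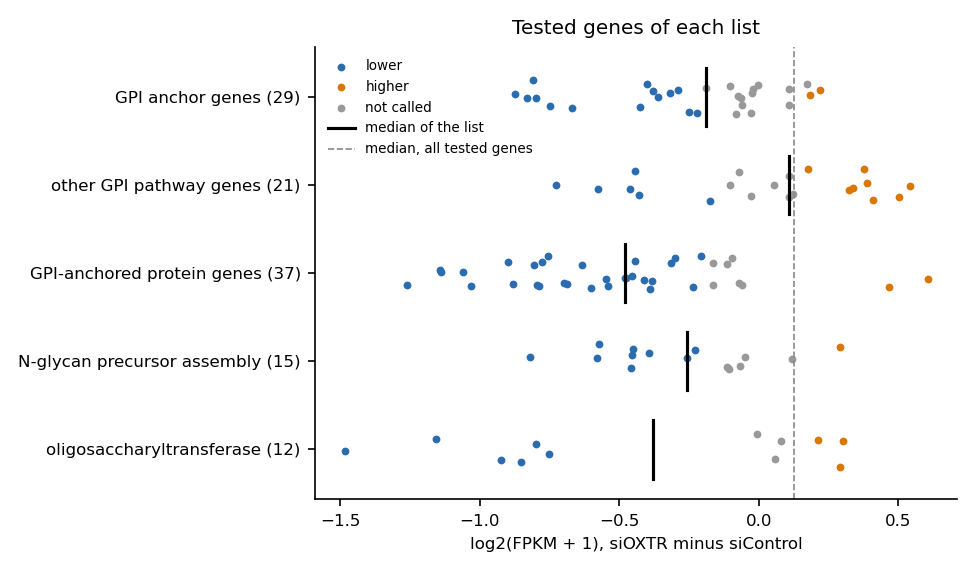
Log2 difference between siOXTR and siControl of each tested gene in 5 lists, coloured by call, with a bar at each list's median and a dashed line at the median of all tested genes. The medians are -0.19 for the GPI anchor genes, 0.11 for other pathway genes, -0.48 for GPI-anchored protein genes, -0.26 for N-glycan assembly and -0.38 for the oligosaccharyltransferase. Points are spread vertically only to separate them.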

How the data were processed

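RNA was measured in 3 siControl and 3 siOXTR libraries of SNU216 cells, grouped by their titles. The authors deposited FPKM, per the file headers, and named GRCh38 (p13) as the build, per the submitters' processing notes. The sources used here give no aligner, quantifier, annotation, strand setting or depth. FPKM are relative to a library total, so fewer cells and less RNA per cell cannot be told apart.

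The 11550 genes that averaged 1 FPKM or more were fitted with limma 3.58.1 (R 4.3.3) on log2(FPKM + 1), with group as the only term. Variances were moderated, with a prior that was robust and followed the mean. Benjamini-Hochberg adjustment of the two-sided p-values ran across all tested genes (threshold 0.05). Differences on this scale understate the change of low genes. Folds are ratios of mean FPKM, and ± is the SD of 3 libraries. The fit was tested only on simulated data in which few genes changed, as many up as down, unlike these data. Every member is named. From other lists, at most the 4 largest rises and falls among called genes were named with values, beside genes said to be picked after their values were seen. TMED5, a smaller fall, was an exception and was given with values as well. Members and lists were chosen with earlier results of these data known. Gene models came from GENCODE release 29, matched by Entrez number. The alternatives were another pseudocount, other filters, scalings and a variance model, a replicate block, and leaving out each library.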

Additional observations from a re-analysis of the deposited data

How the results depend on the processing

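The 14 members called lower kept direction and call under the 14 alternatives, except PIGB without siOXTR replicate 2, and PIGB, PIGM and PIGN were under the filter of at least 5 FPKM. The count of members called higher, 2, became 0 with no filter, after TMM or TPM scaling and with median centring, and ranged from 0 to 4 when 1 library was left out (4 without siControl replicate 3). The members' median log2 difference was -0.20 with a pseudocount of 0.1, -0.15 with no filter and with a mean of at least 5 FPKM, -0.31 after TMM scaling, -0.28 after TPM scaling and -0.23 with median centring, and ranged from -0.21 to -0.12 with 1 library left out. All tested genes called higher numbered 2281 after TMM and 2942 after TPM scaling. The GPI-anchored protein genes called higher numbered 0 with a mean of at least 5 FPKM. The oligosaccharyltransferase genes called higher numbered 0 after TMM scaling, 1 with no filter, after TPM scaling and with median centring, and 1 to 3 with 1 library left out. Differences near 0 changed sign. After TMM scaling PIGW was at -0.0079 and PIGY at -0.0090. With 1 library left out DPM2 ranged from -0.048 to 0.023, DPM3 from -0.069 to 0.045, PIGF from -0.13 to 0.032 and PIGH from -0.11 to 0.089, none of them past the threshold.

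Same-numbered libraries of the 2 groups had deviations from their group means that correlated at 0.107, 0.0042 and 0.16 over tested genes. The labels give no shared culture or day, and siControl 2 correlated best with siOXTR 1, so the numbers were not taken to pair the libraries. With a replicate block 15 members were lower and 3 higher, with PIGQ (adjusted p = 0.0225, limma) and PIGA (adjusted p = 0.0498, limma) added. Depth is unknown, so low members such as PGAP4 and PGAP1 have no limit from counts.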
